A study of Arabidopsis thaliana with 9 samples.

Results

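The comparison described here sets root tips with a gain of the transcription factor ERF115 directly against root tips with a disrupted ERF115 gene, with no wild-type array in any fold change. Its members were chosen by sample title and are 6 of the 9 arrays of the series, 3 of the overexpressor and 3 of the mutant. All plants were Arabidopsis thaliana of the Col-0 accession, harvested untreated at 5 days as root tips of 3 mm. The mutant was the T-DNA insertion line SALK_021981, and the overexpressor carried the ERF115 open reading frame behind the p35S promoter of a plant virus. That promoter is active in most cell types, so the factor need not be limited to the cells that normally make it, which was not checked here. The labels give 1 insertion allele and 1 overexpression construct, and do not say how many lines or plants were pooled. The other 3 arrays are wild type and are given beside the results as a reference. The labels do not say whether the replicates are separate cultures, and p-values then cover no more than the scatter among the samples fitted, wild type included, part of which may be technical.

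ERF115 belongs to the ethylene response factor family, whose members bind DNA through an AP2 domain. It is known for acting in the stem cell niche of the root tip, where the quiescent centre seldom divides, and in the replacement of damaged root cells. The root tip also holds dividing cells, elongating cells with rapidly remodelled walls and, towards its shootward end, young root hairs.

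No probe set could be named as ERF115, so its transcript was not analysed here, and the labels of both lines were therefore not checked against it. Correlations across probe sets were 0.991 to 0.996 between an overexpressor and a mutant array, against 0.995 to 0.997 among the overexpressor arrays and 0.997 to 0.998 among the mutant arrays. They run across probe sets, which are not independent of each other. The 3'-to-5' difference of an actin control transcript, a sign of RNA quality, was 1.96 to 2.14 in the overexpressor and 2.19 to 2.24 in the mutant on the log2 scale. These ranges do not overlap, and the difference of means was -0.18 (exact two-sided permutation p = 0.1, the smallest that 3 arrays against 3 allow). A second set of actin controls on the array overlapped, with a difference of -0.08 (exact permutation p = 0.5). For the GAPDH controls the difference was -0.01 (exact permutation p = 0.9) in 1 set and -0.17 (exact permutation p = 0.1) in the other. The part of RNA quality in the results was not tested beyond the covariate fits given below.

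Levels are log2 values made by RMA, a method that subtracts background, equalises the distributions of the arrays and joins the probes of each set into 1 value. A difference of 1 on this scale is 2-fold. In bulk tissue a lower value can come from fewer cells of a type or from less RNA per cell, which cannot be told apart here. A probe set was called when its p-value, from a limma fit and adjusted by the Benjamini-Hochberg method over all 22746 probe sets, was under 0.05.

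The 15 largest named increases between loss and gain of ERF115 included 3 class III peroxidases, the wall enzyme XTH20, a CAP protein and a jacalin lectin, while decreases were fewer and smaller. Of the 22746 probe sets, 837 were called (3.68%), with 602 higher in the overexpressor (2.65%) and 235 lower (1.03%). At least 2-fold differences were called for 107 higher (0.47%) and 4 lower (0.0176%) probe sets. At least 4-fold increases numbered 14, and no called decrease was that large. The median difference was 0.64 for the probe sets called higher and -0.44 for those called lower, against -0.02 for all probe sets. Many calls were small, with 256 of the higher and 184 of the lower under 1.5-fold. The values of the 2 lines did not overlap in any of the 837, which was also so for 20.1% of all probe sets.

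**Figure D1:**
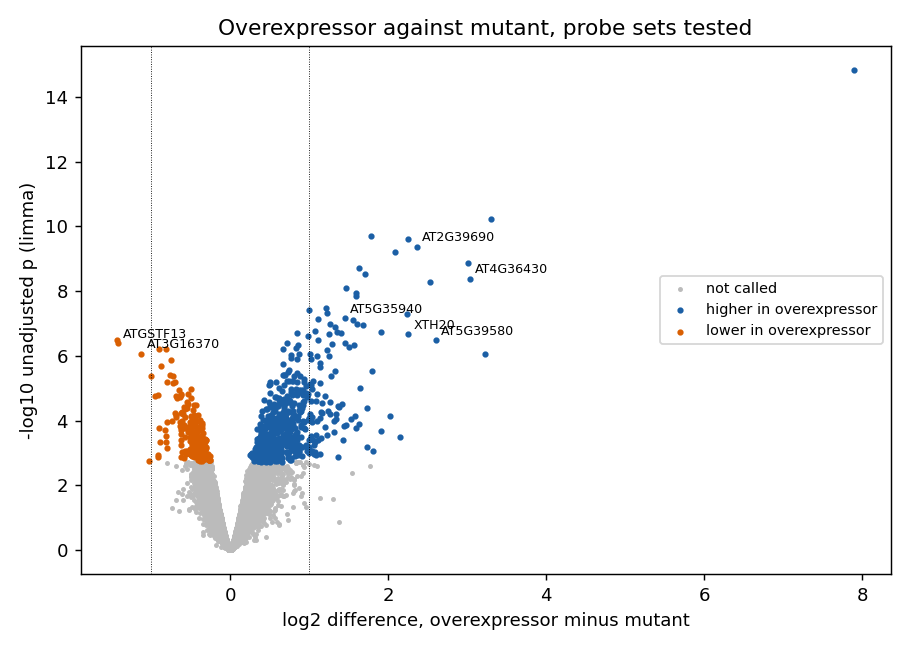
Difference between overexpressor and mutant (log2, x axis) against the unadjusted limma p (-log10, y axis) for the 22746 probe sets tested, with blue for called higher, orange for called lower and grey for not called. Dotted lines mark 2-fold. The 107 blue points beyond the right line outnumber the 4 orange points beyond the left line, and the point at 7.89 is an unnamed probe set.

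The largest named increases were in class III peroxidases, secreted enzymes that use hydrogen peroxide to cross-link or loosen wall polymers. AT4G36430 measured 3.36, 3.76 and 3.76 in the mutant arrays and 6.63, 7.07 and 6.28 in the overexpressor arrays. All overexpressor values lay far above all mutant values, and the gene rose 8.2-fold (3.04, SE 0.17, limma adjusted p = 9.34e-06). AT5G39580, another peroxidase, measured 3.83, 3.52 and 3.52 in the mutant and 5.71, 6.40 and 6.58 in the overexpressor. It rose by 2.61 (SE 0.23, limma adjusted p = 0.000209), again without overlap.

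AT1G34510 of the same family was more variable. It measured 5.34, 5.60 and 6.02 in the mutant and 7.45, 8.41 and 7.55 in the overexpressor, and rose by 2.15 (SE 0.41, limma adjusted p = 0.0173). Wild type spread from 4.82 to 6.62, which spans the whole mutant range. The call was lost when mutant replicate 1, mutant replicate 2 or overexpressor replicate 2 was left out, with adjusted p of AT1G34510 above 0.05 in each. AT4G36430 and AT5G39580 thus moved from below the array medians, which were 5.09 to 5.13 in these 6 arrays, to above them, while AT1G34510 was above them in both lines.

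Of the 55 peroxidase probe sets measured, 7 rose and 2 fell, and the median difference over the family was 0.07 against -0.02 for all probe sets. Beside this, 2.18% of probe sets with 1 gene were called higher and 0.999% lower. These shares belong beside the counts of every list given below as well. Prx37 was highly uniform in the overexpressor, at 7.59, 7.61 and 7.69, against 6.82, 6.58 and 6.44 in the mutant (1.01, SE 0.12, adjusted p = 0.00176, limma). AT5G51890 rose by 0.75 (SE 0.14), AT1G14550 by 0.74 (SE 0.15) and AT2G37130 by 0.73 (SE 0.15). The family did not move one way, since AT4G16270 fell by 0.58 (SE 0.13) and AT5G40150 fell by 0.26 (SE 0.06). The number that rose was 3 without mutant replicate 1 and 4 without mutant replicate 3, and both decreases were lost without any 1 of the 6 arrays compared or without wild-type replicate 1. AT5G51890, AT1G14550 and AT2G37130 each lost their call without mutant replicate 1 or 3. With the actin difference that separates the lines as a covariate, 2 peroxidases were called higher and 0 lower, at a median of 0.12.

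**Figure D2:**
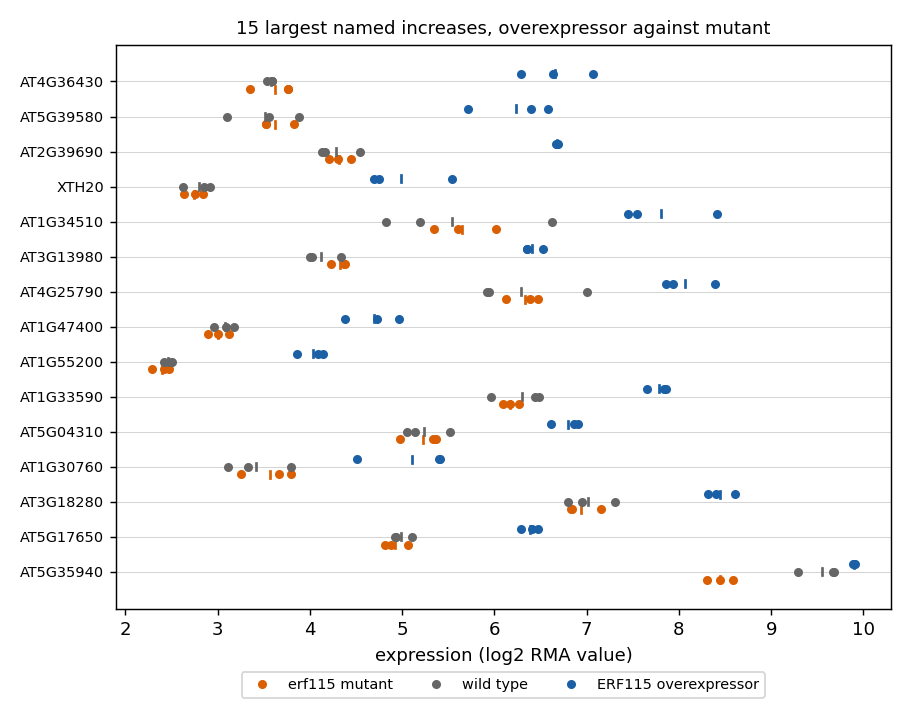
Expression (log2 RMA value, x axis) of the 15 named genes with the largest called increase, 1 row per gene, with 1 point per array and a short bar at the mean of 3 arrays. Overexpressor points (blue) lie right of all mutant points (orange) in every row, and wild type (grey) lies with the mutant in all rows but AT5G35940.

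XTH20, a xyloglucan endotransglucosylase that cuts and rejoins wall xyloglucan, had a low level in the mutant. It measured 2.84, 2.76 and 2.63 there and 4.69, 5.54 and 4.75 in the overexpressor, and rose 4.76-fold (2.25, SE 0.19, limma adjusted p = 0.000149). RMA compresses differences near background, so the size is uncertain for a gene this low. XTH16 of the same family went the other way, from 7.05, 7.10 and 7.21 to 6.19, 6.36 and 6.38, and fell by 0.81 (SE 0.08, limma adjusted p = 0.000306). These were the only called members among 10 XTH probe sets, whose median was 0.10.

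Expansins, proteins that loosen walls without cutting them, were likewise split. Of 19 probe sets, 4 rose and 1 fell, with a median of 0.05. EXPA7 and EXPA18, known from root hairs, rose by 0.68 (SE 0.08) and 0.84 (SE 0.17). EXLB1 rose by 0.78 (SE 0.11) from a low level of 3.30, and EXPA20 rose by 0.35 (SE 0.08, limma adjusted p = 0.0477), a call that was lost in most alternatives. EXPB1 fell from 8.63, 8.65 and 8.70 to 8.22, 8.08 and 8.05, a difference of -0.54 (SE 0.08, limma adjusted p = 0.00404). The count of expansins that rose was 2 without mutant replicate 1, without mutant replicate 3 or without overexpressor replicate 1. With the same covariate none of the 19 was called in either direction, at a median of 0.02.

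Extensins and related proline-rich proteins, rod-like glycoproteins of the wall, were called only upwards. Of 13 probe sets 6 rose and none fell, with a median of 0.21. AT4G08410 measured 5.03, 5.13 and 5.30 in the mutant and 6.36, 6.78 and 6.26 in the overexpressor (1.31, SE 0.24, limma adjusted p = 0.0138), a call lost without mutant replicate 1 or overexpressor replicate 2. HRGP1 rose by 0.87 (SE 0.13), AT3G28550 by 0.62 (SE 0.09) and AT1G23720 by 0.40 (SE 0.07). AT5G06630 rose by 1.11 (SE 0.22), but its call was lost without any 1 of the mutant arrays or of overexpressor replicates 2 and 3. Extensins share repeated sequence, and only 2 of the 6 increases were on probe sets whose names do not mark shared probes. The count was also 2 without mutant replicate 1, 3 without mutant replicate 3 and 0 with the actin covariate, at a median of 0.43 in that fit.

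In glycosyl hydrolase family 9, the endoglucanases that act on wall glucans, 2 of 15 probe sets rose and 1 fell. GH9C1 rose by 0.77 (SE 0.13), which was not called without mutant replicate 1, and GH9B13 by 0.42 (SE 0.07). GH9C3 measured 5.36, 5.00 and 5.14 in the mutant and 4.43, 4.30 and 4.38 in the overexpressor, and fell by 0.80 (SE 0.10, limma adjusted p = 0.00167). The family median was -0.02, the same as for all probe sets. Among 4 pectin enzyme probe sets found by gene name, ATPMEPCRB, a pectin methylesterase, was called and rose by 0.84 (SE 0.09) from a low level. Pectin enzymes known only by a locus code were not counted. With the actin covariate, 0 of the 15 family 9 probe sets were called, at a median of -0.13.

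**Figure D3:**
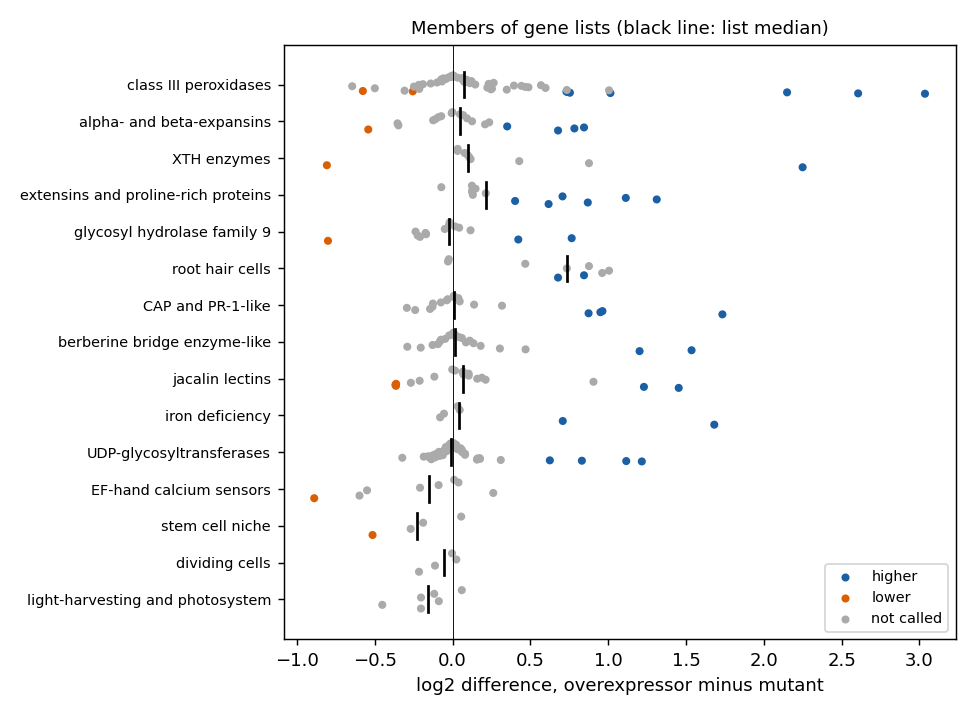
Difference between overexpressor and mutant (log2, x axis) for each measured member of 15 gene lists, 1 row per list, with blue for called higher, orange for called lower, grey for not called and a black line at the list median. Most members lie near 0 in most rows, with a few far to the right, up to 3.04 in peroxidases and 2.25 in XTH enzymes. CAP proteins reach 1.73, iron deficiency genes 1.68, berberine bridge enzyme-like proteins 1.54 and jacalins 1.45. Extensins reach 1.31 and UDP-glycosyltransferases 1.22. In the root hair row the median is 0.73, with 7 of the 9 members above 0 and 2 below.

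Root hair genes had the largest median of the lists with at least 3 probe sets, 0.73 over 9 probe sets, of which 2 were called, EXPA7 and EXPA18. Of the 9 differences, 7 lay above 0 and 2 below, the lowest at -0.03. The means of the 9 per array were 6.91, 6.99 and 7.07 in the mutant and 7.47, 7.84 and 7.49 in the overexpressor. Wild type measured 6.71, 6.81 and 7.30, so its replicate 3 stood closer to the overexpressor than the others did. The peroxidase AT3G49960 differed by 1.01 (SE 0.25, limma adjusted p = 0.0553), AT5G04960 by 0.96 (SE 0.23, limma adjusted p = 0.0511) and AT4G26010 by 0.73 (SE 0.19, limma adjusted p = 0.0657), all just short of the threshold. In the fit of the 6 arrays alone, or without wild-type replicate 3, 6 of the 9 were called higher, and without wild-type replicate 1 it was 4. The number was 1 when mutant array 1 or 3, or overexpressor array 1 or 2, was left out. With the actin covariate 0 of the 9 were called, at a median of 0.77. The list had only EXPA7 and EXPA18 before gene codes were added to it. It shares 3 probe sets with the peroxidases, and the part of root hair cells in the wall results was not tested.

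Secreted CAP proteins, the family of the defence protein PR-1, followed. Of 18 probe sets 4 rose and none fell, and the median was 0.01. AT4G25790 measured 6.13, 6.38 and 6.47 in the mutant and 7.94, 8.39 and 7.86 in the overexpressor, and rose 3.33-fold (1.73, SE 0.26, limma adjusted p = 0.00514). AT4G33730 rose by 0.95 (SE 0.17), AT4G30320 by 0.96 (SE 0.20) and AT4G07820 by 0.87 (SE 0.13). The call of AT4G30320 was lost without any 1 of the mutant arrays or of overexpressor replicates 2 and 3. That of AT4G33730 was lost without mutant replicate 1 or overexpressor replicate 2. The count was 2 without mutant replicate 1 or without overexpressor replicate 2, and 1 with the actin covariate.

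Berberine bridge enzyme-like proteins, secreted flavin-linked oxidases, had 2 increases among 22 probe sets. AT1G30760 measured 3.25, 3.79 and 3.67 in the mutant and 4.51, 5.41 and 5.40 in the overexpressor, and rose by 1.54 (SE 0.25, limma adjusted p = 0.00833). AT1G30700 rose by 1.20 (SE 0.16). Both kept their call without any single array. The list median was 0.02.

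The jacalin lectins, carbohydrate-binding proteins, held both a strong increase and a cluster of small decreases. AT5G35940 measured 8.59, 8.45 and 8.30 in the mutant and 9.90, 9.88 and 9.91 in the overexpressor, and rose 2.74-fold (1.45, SE 0.11, limma adjusted p = 8.15e-05). AT1G33790 rose by 1.23 (SE 0.12). AT1G52050 fell by 0.36 (SE 0.06), AT1G52060 fell by 0.37 (SE 0.07) and AT1G52070 fell by 0.36 (SE 0.09), all from high levels between 9.36 and 10.8. These 5 were the called members of 19 probe sets, with a median of 0.07. The number of decreases was 1 when mutant array 1 or 2, or overexpressor array 2 or 3, was left out, and 0 with the actin covariate.

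UDP-glycosyltransferases attach sugars to hormones and other small molecules. Among the 51 probe sets found by gene name there were 4 increases and no decrease, with a median of -0.01. Members known only by a locus code were not counted, so the family as a whole may hold decreases. UGT76C2, which inactivates cytokinins by adding glucose to the ring nitrogen, measured 5.01, 5.07 and 4.92 in the mutant and 6.25, 6.26 and 6.14 in the overexpressor. It rose 2.32-fold (1.22, SE 0.09, limma adjusted p = 4.88e-05). UGT73D1 rose by 1.12 (SE 0.10), UGT71C3 by 0.83 (SE 0.08) and UGT87A2 by 0.63 (SE 0.09). All 4 kept their call without any single array and with either actin control as a covariate. None of 6 cytokinin response regulators, genes that cytokinin induces or that transmit its signal, was called, and their median was -0.03. Their means per array were only 2.51 to 2.54 in the mutant and 2.47 to 2.56 in the overexpressor. RMA compresses differences near background, so these probe sets could hardly show a change in cytokinin response.

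Of 6 probe sets of iron deficiency genes, 2 rose and none fell. AT1G47400 measured 2.89, 3.13 and 3.01 in the mutant and 4.38, 4.72 and 4.97 in the overexpressor, and rose 3.21-fold (1.68, SE 0.13, limma adjusted p = 0.000103). BHLH101, a transcription factor induced by iron shortage, rose by 0.71 (SE 0.10) from 2.69. The other 4 stayed within 0.08 of 0, among them PYE with 0.05 (SE 0.09). With the actin covariate only AT1G47400 was called.

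The largest named decrease was in ATGSTF13, a glutathione transferase that conjugates glutathione to reactive compounds. It measured 6.58, 6.24 and 6.28 in the mutant and 5.11, 4.83 and 4.90 in the overexpressor, and fell by 1.42 (SE 0.13, limma adjusted p = 0.000241). GSTU27, another glutathione transferase, rose by 0.69 (SE 0.11), and the median of 13 probe sets was 0.03. AT3G16370 measured 4.54, 4.58 and 4.79 in the mutant and 3.71, 3.50 and 3.33 in the overexpressor (-1.12, SE 0.11, limma adjusted p = 0.000386). These 2 were the only named genes that fell at least 2-fold.

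CML23, a calmodulin-like calcium sensor, measured 6.70, 6.73 and 6.54 in the mutant and 5.37, 6.25 and 5.68 in the overexpressor (-0.89, SE 0.18, limma adjusted p = 0.0201). Its wild-type values of 7.23, 7.43 and 7.29 lay above both lines. The call was lost without any 1 of the mutant arrays or overexpressor replicate 3, with the 6 arrays alone and with the actin covariate. It was the only one called of 8 calmodulin-like probe sets, whose median was -0.15. EXO, which promotes cell expansion, fell from 7.13, 6.77 and 6.78 to 6.36, 6.39 and 6.25, a difference of -0.56 (SE 0.10, limma adjusted p = 0.0114) that was not called without overexpressor replicate 3 or with the actin covariate. It was the only called member of 5 touch and wound response genes, all with values below 0 and a median of -0.42. CML38 at -0.55 (SE 0.20, limma adjusted p = 0.207) and STZ at -0.42 (SE 0.21, limma adjusted p = 0.363) were not called.

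AT3G21670, of the nitrate transporter family, fell from 6.58, 6.46 and 6.41 to 5.74, 5.78 and 5.92, a difference of -0.67 (SE 0.09, limma adjusted p = 0.00331). GTR1, a glucosinolate transporter of that family, rose by 0.47 (SE 0.08), a call lost without mutant replicate 1. These 2 were the called members of 12 probe sets, with a median of -0.08. CYP71B26 fell by 0.59 (SE 0.09) and was the only one called of 29 cytochromes P450. Among 15 dirigent proteins, which guide the coupling of phenolic radicals, AT3G13650 rose by 1.03 (SE 0.14) and AT4G11210 fell by 0.63 (SE 0.11). With the actin covariate AT3G13650 was the only one of these 5 genes called.

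**Figure D4:**
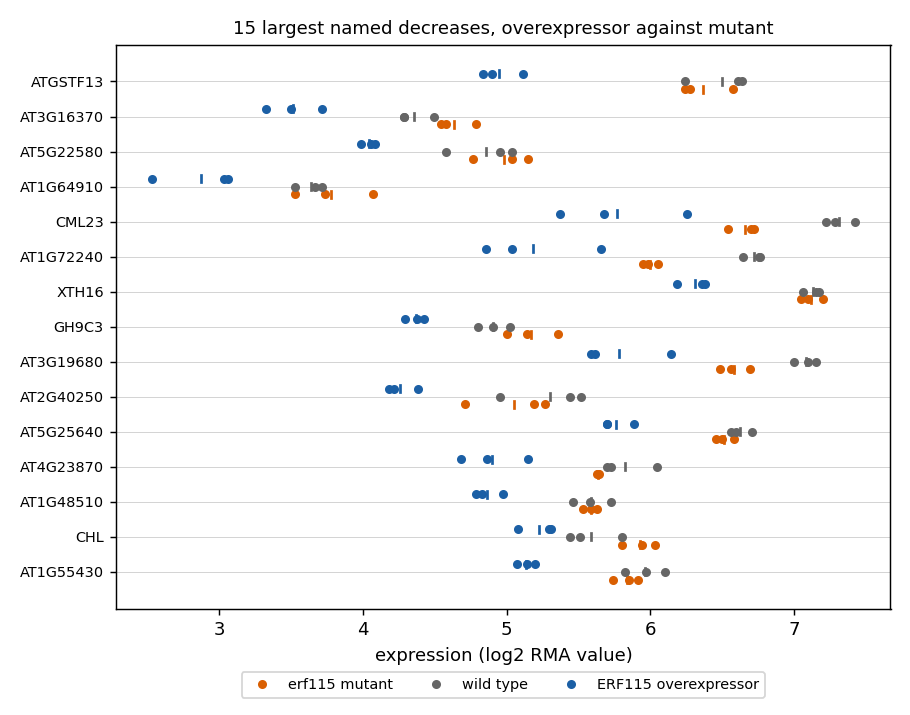
Expression (log2 RMA value, x axis) of the 15 named genes with the largest called decrease, 1 row per gene, with 1 point per array and a short bar at the mean of 3 arrays. Overexpressor points (blue) lie left of all mutant points (orange) in every row, and wild type (grey) lies above both lines in CML23, AT1G72240 and AT3G19680.

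The other large named differences were in genes outside the lists. AT2G39690 measured 4.44, 4.21 and 4.31 in the mutant and 6.68, 6.69 and 6.67 in the overexpressor, and rose 5.14-fold (2.36, SE 0.11, limma adjusted p = 1.93e-06). AT3G13980 rose by 2.09 (SE 0.10), AT1G55200 by 1.64 (SE 0.09), AT1G33590 by 1.61 (SE 0.13) and AT5G17650 by 1.47 (SE 0.09). AT3G18280 rose 2.83-fold (SE 0.14 on the log2 scale). AT5G22580 measured 5.15, 4.77 and 5.04 in the mutant and 4.06, 3.98 and 4.08 in the overexpressor, and fell by 0.94 (SE 0.13, limma adjusted p = 0.00301). AT5G25640 fell by 0.75 (SE 0.08), AT1G48510 by 0.72 (SE 0.08) and AT1G55430 by 0.70 (SE 0.08). These genes kept their call without any single array and with either actin covariate. AT1G72240, which fell by 0.82 (SE 0.16), and AT2G40250, which fell by 0.79 (SE 0.17), did not. AT1G64910, which fell by 0.90 (SE 0.16), lost its call without mutant replicate 1 and with the actin difference that separates the lines as a covariate.

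Few of the measured stem cell niche and division genes were called. AGL42, a MADS-box gene expressed in the quiescent centre, measured 5.19, 5.13 and 5.09 in the mutant and 4.58, 4.62 and 4.66 in the overexpressor, and fell by 0.51 (SE 0.09, limma adjusted p = 0.0118). Its call was lost without mutant replicate 1 and with the actin covariate. BBM, a regulator of root stem cells, stood at -0.19 (SE 0.14) and JKD, a zinc finger protein of the niche, at 0.05 (SE 0.09), neither of them called. Of the 4 niche probe sets, AGL42 included, 3 lay below 0 and 1 above, with a median of -0.23. Their means per array were 4.93 to 4.94 in the mutant and 4.61 to 4.78 in the overexpressor. None of the 4 dividing cell genes was called, and their median was -0.06. AUR1, a mitotic kinase, stood at -0.22 (SE 0.07, limma adjusted p = 0.147). Few markers of these cell types could be named, with none for root cap or non-hair epidermis and 1 each for endodermis, xylem and phloem. None of 6 light-harvesting and photosystem probe sets was called, and their array means were 4.06 to 4.19 in the overexpressor and 4.20 to 4.36 in the mutant.

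Wild type lay close to the mutant for most genes that differed between gain and loss. Its position was taken as 0 at the mutant mean and 1 at the overexpressor mean. The median position was -0.04 for probe sets called higher and 0.07 for those called lower. Of the 602 higher, 356 had wild type beyond the mutant, below 0, and 231 between 0 and 0.5, which leaves 15 nearer to the overexpressor. Of the 235 lower, 99 lay below 0, 119 between 0 and 0.5, 15 between 0.5 and 1 and 2 above 1. The mutant was called against wild type at 1 higher (0.0044%) and 2 lower (0.00879%) probe sets, and the overexpressor against wild type at 854 higher (3.75%) and 387 lower (1.7%). These comparisons share arrays, so their values are only set side by side.

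AT5G35940 was the only named gene with at least 2-fold difference whose wild-type mean was nearer to the overexpressor, at a position of 0.76. It measured 9.68, 9.67 and 9.29 in wild type, below all overexpressor values and above all mutant values. Next in position were AT3G16370 at 0.25 and AT1G59850 at 0.20. PUB23, an E3 ubiquitin ligase of immune signalling chosen after its values were seen, had a position of 0.65 at a difference of 0.53 (SE 0.10). The call of PUB23 was lost without mutant replicate 3, without overexpressor replicate 3 and with the actin covariate.

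**Figure D5:**
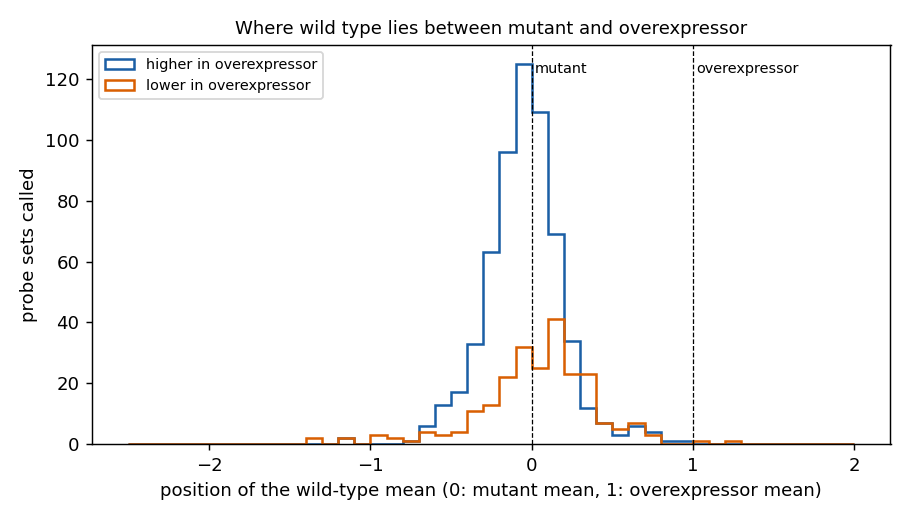
Number of called probe sets (y axis) by the position of the wild-type mean (x axis, 0 at the mutant mean and 1 at the overexpressor mean), with blue for the 602 higher and orange for the 235 lower. Both outlines peak close to the mutant, with medians of -0.04 and 0.07.

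The single arrays did not weigh equally. Overexpressor replicate 2 held the highest of the 3 overexpressor values in 337 of the 602 increases (56.0%), against 109 for replicate 1 and 156 for replicate 3. Without mutant replicate 1, 280 probe sets were higher and 75 lower, and without mutant replicate 3, 287 and 87. Without overexpressor replicate 2 the counts were 366 and 135, and without overexpressor replicate 3 they were 377 and 111. With the actin difference as a covariate, 149 were higher and 17 lower, while the second set of actin controls as the covariate gave 497 and 187. The median SE rose from 0.088 to 0.128 with the first covariate and to 0.091 with the second. The probe sets picked for this text by rule or by hand include unnamed ones, and 105 of them were called. Of these 105, 62 lost their call with the first covariate and 9 with the second. Among the 62 were Prx37, EXPA7, EXPB1, HRGP1, GH9C3, EXO and AGL42. Of the 30 genes with the largest named differences, 9 lost their call with the first covariate and 0 with the second, and AT1G34510 was the only 1 of the 15 increases among the 9.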

How the data were processed

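The authors deposited log2 values, which per the submitters' processing notes were made with RMA in affy 1.36. Of 22810 probe sets, 64 controls were left out. Names came from the platform's probe table and RefSeq (TAIR10.1, names only): 13513 probe sets have 1 gene, 503 several, and 8730 are unnamed here. For genes named only by a locus code, family membership came from general knowledge.

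The fit used all 9 arrays and limma 3.58.1 under R 4.3.3 (lmFit, then eBayes; 1 mean per genotype; 6 residual and 4.49 prior degrees of freedom). Groups and replicates follow the sample titles. The number of arrays limits precision, with a median SE of 0.088. On simulated data for this comparison over 22746 probe sets, the fit called 55% of changes of 0.5 and 93% of changes of 1 (log2), and 5.13% of its calls were false. The simulated noise was independent between probe sets and had the same spread on every array. Fitted weights of the real arrays ran from 0.52 for wild-type replicate 3 to 2.75 for mutant replicate 3. The 5.13% therefore does not measure false calls in the real data.

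The members and lists were chosen with earlier results of these data known. The lists were then revised after values of this comparison had been seen: of 63 lists, 21 were dropped, of which 7 had measured members (60 probe sets, 5 called higher and 0 lower). Another 3 lists were added, and locus codes were added to 9 lists, including the peroxidases (before this 7 probe sets, 1 higher and 0 lower), extensins (3, 1 and 0), jacalins (4, 0 and 0), root hair (2, 2 and 0) and iron deficiency (4, 1 and 0). Before this the CAP and berberine bridge lists had no member. Search patterns were also changed for others, among them glutathione transferases (12 to 13 probe sets, adding ATGSTF13's decrease), P450 (24 to 29) and UDP-glycosyltransferases (43 to 51). Counts for these lists therefore describe families looked up after their leading genes were known, and support nothing on their own.

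The rule for named genes takes the 15 largest increases and the 15 largest decreases that passed without overlap, up to 4 called members per list, 5 unnamed probe sets per direction and the 5 genes of at least 2-fold difference with wild type nearest the overexpressor. Its list part inherits the revision. Other genes named, such as AT1G14550, AT2G37130, AT4G16270, AT5G40150, EXPA20, AT1G52070, AT3G49960, AT5G04960, AT4G26010, CML38, STZ, BBM, JKD, PYE and AUR1, were chosen after their values were seen.

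The planned covariate was the actin 3'-to-5' difference, without naming the control sets. The first fit used 1 pair of sets (497 higher) and was then replaced by the pair reported first (149 higher), after that result was seen, so both are given. Other alternatives were the 6 arrays alone, a replicate block, median centring, quantile normalization, filters on low values, a trended prior, array weights, no probe sets with shared probes and each array left out.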

Additional observations from a re-analysis of the deposited data

How the results depend on the processing

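Over 20 alternatives no called gene that is named changed direction. The probe sets picked by the rule for named genes or by hand include unnamed ones, and 105 of them were called. Of these 105, 43 kept their call throughout. The call was lost for 41 when some array was left out. Under another setting 62 lost it, all 62 of them with the first actin covariate. With each array left out in turn, 280 to 695 probe sets were higher, 75 to 262 lower, 78 to 132 at least 2-fold higher and 3 to 7 at least 2-fold lower. The median wild-type position over the probe sets called lower was then 0.018 to 0.19, and over those called higher it was -0.13 to 0.02. Array weights gave 1079 higher, 683 lower and a position of 0.13 for the lower. The actin covariate gave 149 and 17, and the second actin controls, added after the data were seen, 497 and 187 with 91 and 6 at least 2-fold. The share of higher calls was 71.9%, against 61.2% with array weights and 89.8% with the first actin covariate. Keeping only probe sets with a mean above the median left 57 at least 2-fold higher and 2 lower, and a mean of at least 5 left 59 and 2. These filters test fewer probe sets. Median centring gave a position of 0.0045 for the lower. The cause of the other changes was not tested. The block for replicate numbers gave 633 higher and 214 lower. Same-numbered overexpressor and mutant arrays had correlations of their deviations of -0.03 to 0.05 over 3 pairs, and other numbers -0.10 to 0.08, so the numbers were not taken to pair these lines. Between wild type and mutant the same numbers gave 0.10 to 0.14 and other numbers -0.08 to -0.04. Probe sets near background limit what can be called, because RMA compresses their differences.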

Other observations

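A few transcription factor genes are given here that were chosen after their values were seen. LEP, an AP2-type factor of leaf development, measured 7.56, 7.42 and 7.46 in the mutant and 8.23, 8.07 and 8.14 in the overexpressor, and rose by 0.67 (SE 0.07, limma adjusted p = 0.000642). SMZ, an AP2-type repressor of flowering, rose by 0.71 (SE 0.13). WRKY47 was the only called member of 7 WRKY probe sets, with a rise of 0.56 (SE 0.11). SMZ lost its call without mutant replicate 1 or 3 and with the 6 arrays alone. WRKY47 lost it without mutant replicate 1 or 3 or overexpressor replicate 1 or 2. Both lost it with the first actin covariate. The ERF list as first written, which was dropped because its pattern also matched clone names, held 45 probe sets with 3 called higher and 0 lower and a median of -0.05, beside 2.18% of probe sets with 1 gene called higher.

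Signalling genes chosen in the same way included BIK1, a kinase of immune receptors, which rose by 0.67 (SE 0.13) but was not called without mutant replicate 1 or 3 or overexpressor replicate 2 or 3 or with the first actin covariate, and RALFL27, a secreted signal peptide, which rose by 0.74 (SE 0.11). BGLU46, a glucosidase of lignin precursors, measured 4.92, 5.55 and 5.26 in the mutant and 6.46, 6.71 and 6.53 in the overexpressor, and rose 2.51-fold (1.33, SE 0.15, limma adjusted p = 0.00101). None of 6 lignin and phenylpropanoid probe sets was called, with CCR2 at 0.48 (SE 0.12) and HCT at 0.30 (SE 0.09). PSY1R, a receptor kinase for a sulfated peptide, rose by 0.46 (SE 0.10). Its call was lost without mutant replicate 1 or 3 without any 1 of the overexpressor arrays and with either actin covariate.

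Of 69 probe sets of genes encoded in the organelles, 3 rose and 1 fell, with a median of -0.04. Over all probe sets with 1 gene, 2.18% were called higher and 0.999% lower. The plastid genes accD, for fatty acid synthesis, and rpl20, for the plastid ribosome, rose by 0.48 (SE 0.08) and 0.54 (SE 0.09), and ccsA fell by 0.35 (SE 0.08). The call of ccsA was lost without any 1 of the 6 arrays compared, without wild-type replicate 1 or 2, with the 6 arrays alone and with either actin covariate, and that of rpl20 without mutant replicate 1 or 3. The counts were 1 and 0 without mutant replicate 1 or 3, 5 and 0 without overexpressor replicate 1, and 0 and 0 with the first actin covariate. In the main fit no called member was found among 17 defensin and thionin probe sets, 8 of the Aux/IAA, GH3 and SAUR genes or 5 histones.

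An unnamed probe set had the largest difference, with at most 2.38 in the mutant arrays, 10.23, 10.05 and 9.89 in the overexpressor and 2.15 to 2.20 in wild type (7.89, SE 0.11). The next unnamed increase was 3.30 (SE 0.12), and the largest unnamed decrease was -1.42 (SE 0.13). Where a gene had several probe sets, AT5G04310 rose on both, by 1.57 and 1.33, and AT1G18390 by 0.93 and 0.80. GAT1_2.1 rose on 1 by 1.14 (SE 0.12), while the other stood at 0.05 (SE 0.06).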
